A study of Mus musculus with 19 samples.

Results

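Pdzd2, a mouse gene on chromosome 15 that encodes a protein with several PDZ domains, was represented by 1 probe set (17316068) of the 8751 in the deposited values, and was 1 of the 1121 genes that had a probe set of their own symbol. The probe set was taken as the one whose only gene symbol in the platform annotation is Pdzd2, and 0 further probe sets held Pdzd2 among several symbols. The gene was singled out because its level differed after sleep deprivation in these same arrays, so that difference is given below as a description with no test, and tests are given for genotype and for the interaction.

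Forebrain RNA was measured on Affymetrix Mouse Gene 2.0 ST arrays, which carry short probes along the exons of each gene. The groups were 5 arrays of EphA4 knockout mice deprived of sleep for 6 h (KO sleep-deprived), 6 of wild-type littermates deprived of sleep for 6 h (WT sleep-deprived), 4 of undisturbed EphA4 knockout mice (KO control) and 4 of undisturbed wild-type littermates (WT control). All mice had the strain label Mixed BL6/10 and lived in a cycle of 12 h light and 12 h dark. The labels do not state age, sex or the design of the knockout allele. The labels do not say whether every array is a separate animal, so the p-values reflect the spread between arrays, which may be technical. In RNA from whole forebrain, fewer cells that express a gene and less RNA per cell cannot be told apart.

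PDZ domains are protein modules that mostly bind the last few residues of partner proteins, and proteins with several of them act as scaffolds for receptors, channels and junction proteins. Pdzd2 was described in rat as PAPIN, a protein that binds the armadillo-repeat protein p0071 (encoded by Pkp4), and its PDZ domains resemble those of the precursor of interleukin-16. A secreted fragment cut from the protein has been studied in insulin-producing cells, and Pdzd2 has been reported to bind the sodium channel Nav1.8 in rodent sensory neurons. EphA4, the receptor deleted here, is a receptor tyrosine kinase for ephrins found on neurons and astrocytes.

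Because the level of Pdzd2 mRNA is what differed between the groups, the sequence before the start of the gene is shown. It was taken from RefSeq (GRCm38.p6, minus strand, chr15:12739969-12740142) and holds the 174 bases of the promoter window that precede the annotated gene. Capitals mark CCGCCC, the GC box bound by Sp-family factors.
Pdzd2 promoter: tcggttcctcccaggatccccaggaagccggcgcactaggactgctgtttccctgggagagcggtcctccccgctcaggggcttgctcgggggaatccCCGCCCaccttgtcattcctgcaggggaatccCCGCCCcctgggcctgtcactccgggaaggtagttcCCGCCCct
The window held 67.8% G and C, against a median of 51.1% over the first 174 bases of 32851 promoter windows. That length was set by the start of the annotated Pdzd2 gene, so for other genes the stretch may end short of the gene. The GC box, searched on both strands, matched 3 times, all on the printed strand. In the same first 174 bases, 20.04% of all windows held at least 1 match and 2.91% held at least 3. The cAMP response element TGACGTCA, its half-site TGACG and the E-box CACGTG, searched on both strands, were not in this window. They were in the first 174 bases of 0.536%, 10.2% and 3.52% of all windows, in the same order. The motifs were chosen after the values were seen, the full element contains the half-site, and a match in letters is no evidence of binding.

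Pdzd2 was higher on the sleep-deprived than on the undisturbed arrays of both genotypes. In the KO sleep-deprived group the log2 values of Pdzd2 were 8.65, 8.70, 8.73, 8.63 and 8.56 for replicates 1 to 5. In the KO control group they were 8.47, 8.53, 8.41 and 8.55 for replicates 1 to 4. The lowest KO sleep-deprived array lay just above the highest KO control array, by 0.0047 on the log2 scale. In the WT sleep-deprived group the lowest value was 8.64, the median 8.71 and the highest 8.91. In the WT control group the values were 8.40, 8.45, 8.43 and 8.44 for replicates 1 to 4. The WT groups were separated more widely, by 0.19 between the lowest WT sleep-deprived and the highest WT control array.

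**Figure D1:**
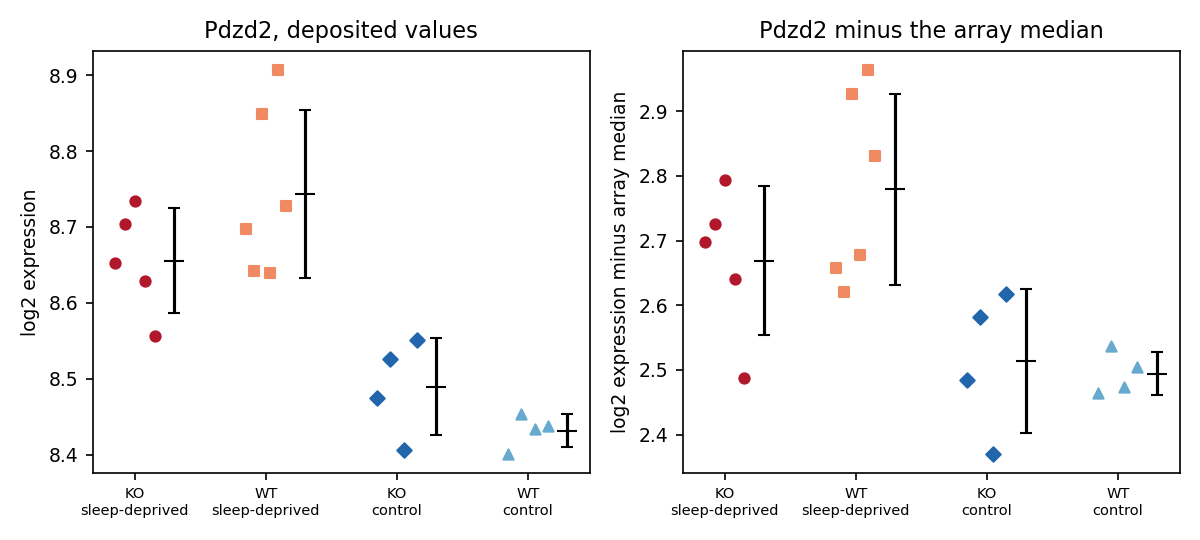
Left, log2 expression of Pdzd2 on each array by group; right, the same values minus the median of the array. Points are arrays, and the black bars beside them are the mean ± SD (n = 5, 6, 4 and 4 from left to right); the groups of each genotype are separate on the left, and the KO groups overlap on the right.

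The order of the group means was WT sleep-deprived, KO sleep-deprived, KO control and WT control. Means were 8.66 ± 0.07 (SD, n = 5) in KO sleep-deprived and 8.49 ± 0.06 (SD, n = 4) in KO control arrays. In wild type they were 8.74 ± 0.11 (SD, n = 6) in sleep-deprived and 8.43 ± 0.02 (SD, n = 4) in control arrays. The WT sleep-deprived arrays had the widest spread of the 4 groups and the WT control arrays the narrowest, so the wide gap in wild type comes with a tight control group of 4 arrays. In the order of means, the 2 sleep-deprived groups overlapped, as did the 2 control groups, while KO sleep-deprived and KO control were next to each other with almost no gap.

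Within the knockout, sleep deprivation went with a log2 difference of 0.17 ± 0.07 (SE), a 1.12-fold higher level. Within wild type the log2 difference was 0.31 ± 0.06 (SE), a 1.24-fold higher level. Averaged over both genotypes it was 0.24 ± 0.05 (SE). These were small changes on a probe set with little scatter. The within-group SD of Pdzd2, pooled over the 4 groups, was 0.079 on the log2 scale, against a median of 0.17 over all probe sets, and 3.92% of probe sets had a smaller one. That share is given for scale only, since choosing a gene on its difference can favour probe sets with little scatter. Nor were the probe sets matched to Pdzd2 for brightness.

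**Figure D2:**
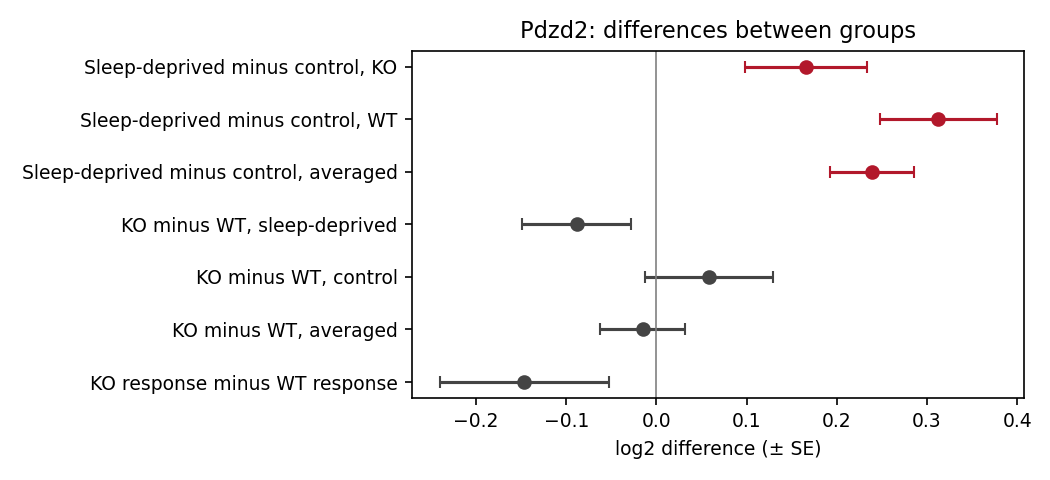
Log2 differences of Pdzd2 between groups with their SE from the fit to all 19 arrays. Red points are sleep-deprived minus control arrays (0.17 in the knockout, 0.31 in wild type, 0.24 averaged), and grey points are KO minus WT arrays and the difference between the genotypes' responses (-0.15).

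Every sleep-deprived array lay above every control array of its genotype for 10 of the 8751 probe sets (0.114%), of which 6 had distinct values. Of the 10, 2 carried a single symbol, Pdzd2 and Fkbp5, which encodes a co-chaperone of the glucocorticoid receptor; 3 carried several symbols and 5 were unnamed here. The same separation held for 3.09% of probe sets within the knockout and for 0.891% within wild type. Since Pdzd2 was chosen on this contrast, these shares are given for scale only.

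The separation in the knockout depended on the scale. After subtraction of each array's median, the lowest KO sleep-deprived array lay 0.13 below the highest KO control array on the log2 scale, and after quantile normalization of the deposited rows it lay 0.05 below it. Under both scalings the lowest KO sleep-deprived array was replicate 5. It had the lowest Pdzd2 value of the sleep-deprived arrays, the highest array median (6.07, against 5.90 to 6.04 on the other arrays) and the lowest weight when arrays were weighted by their scatter (0.558). Without it, on the deposited scale, the gap in the knockout was 0.08 and the log2 difference 0.19. In wild type the groups stayed apart under both scalings, by 0.08 after median subtraction and 0.22 after quantile normalization. The median over all probe sets of the difference averaged over genotypes was 0.02 on the deposited scale and within 0.1 of zero under each scaling.

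**Figure D3:**
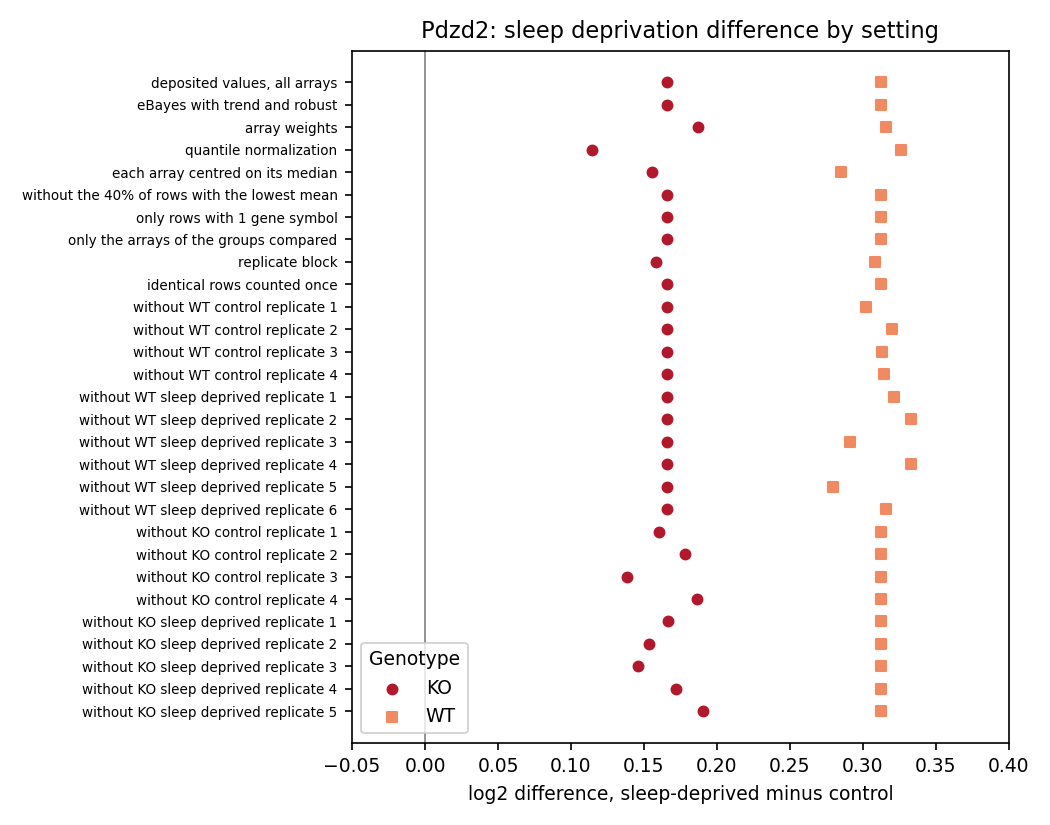
Log2 difference of Pdzd2 between sleep-deprived and control arrays under each processing setting and with each array left out, for KO (circles) and WT (squares). Values run from 0.11 to 0.19 in KO and from 0.28 to 0.33 in WT, and no setting gives a negative difference. Settings that change only the variance or the rows used cannot move a value, nor can leaving out an array of the other genotype.

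The genotype comparisons asked whether loss of EphA4 went with another level of Pdzd2, which was not the reason it was chosen. After sleep deprivation the KO arrays ran from 8.56 to 8.73 and the WT arrays from 8.64 to 8.91, with 3 of the 5 KO arrays inside the WT range. The log2 difference was -0.09 ± 0.06 (SE, 95% interval -0.22 to 0.04), and limma gave an adjusted p = 0.53, with 1.68% of probe sets called in this comparison. After quantile normalization the difference was -0.15 ± 0.05 (SE, adjusted p = 0.17 in limma), and without WT sleep-deprived replicate 5 it was -0.06. An exact permutation test of the 5 and 6 arrays, two-sided, gave p = 0.18 (smallest possible p = 0.0022). In controls the KO arrays ran from 8.41 to 8.55 and the WT arrays from 8.40 to 8.45, with 1 of the 4 KO arrays inside the WT range. The log2 difference was 0.06 ± 0.07 (SE, 95% interval -0.09 to 0.21) with an adjusted p = 0.94 in limma. It was 0.02 with each array centred on its median and 0.04 without KO control replicate 4. In controls limma called no probe set (0%), and 476 of them had an unadjusted p under 0.05. The exact permutation test of 4 against 4 arrays, two-sided, gave p = 0.17 (smallest possible p = 0.029), and both exact tests had p = 0.18 after Benjamini-Hochberg adjustment over the 2.

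Averaged over conditions, Pdzd2 differed by -0.02 ± 0.05 between KO and WT arrays (log2, SE, 95% interval -0.11 to 0.08; adjusted p = 0.96 in limma), with 0.0114% of probe sets called. The response to sleep deprivation was 0.15 smaller in the knockout (interaction -0.15 ± 0.09, SE, 95% interval -0.34 to 0.05; adjusted p = 0.56 in limma). The interaction was called for 0.0686% of probe sets. The interval includes both no difference and a knockout response smaller by the whole size of the wild-type response (0.31).

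Other genes of PDZ-domain proteins were looked up from a list of 154 genes, of which 4 had a probe set of their own symbol. None of the 4 was called for sleep deprivation averaged over genotypes (0 higher and 0 lower, with 0.263% of all probe sets called). In limma 0 of the 4 had an unadjusted p under 0.05 there, against 694 of the 8751 probe sets. The median log2 difference of the 4 was 0.01, against 0.02 over all probe sets. None was called for genotype averaged over conditions (0.0114% of all probe sets called) or for the interaction (0.0686%). There 0 of the 4 had an unadjusted p under 0.05, against 764 and 1007 of the 8751 probe sets. The medians of the 4 were 0.05 and -0.03, against 0.015 and -0.0027 over all probe sets. For genotype after sleep deprivation and for sleep deprivation within the knockout 1 of the 4, Synj2bp in both, had an unadjusted p under 0.05 in limma. Of the 8751 probe sets, 1345 and 1030 had such a p in these comparisons, in the same order. None of the 4 was called, against 147 and 23 of the 8751.

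Synj2bp, which encodes a PDZ protein of the outer mitochondrial membrane, had the widest difference of the 4 for sleep deprivation in the knockout. It was dim, with group means (5.54 to 5.98) within or below the range of the array medians (5.90 to 6.07). Its log2 values were 6.27, 5.91, 5.82, 6.33 and 5.56 in KO sleep-deprived and 5.60, 5.75, 5.45 and 5.36 in KO control arrays. The groups overlapped, since KO sleep-deprived replicate 5 lay below 2 of the KO control arrays. The log2 difference was 0.44 ± 0.16 (SE, adjusted p = 0.27 in limma) in the knockout, and -0.02 ± 0.15 (SE, adjusted p = 0.99) in wild type, where sleep-deprived arrays averaged 5.56 ± 0.17 (SD, n = 6) and controls 5.57 ± 0.34 (SD, n = 4). The interaction of Synj2bp was 0.45 ± 0.22 (SE, adjusted p = 0.44 in limma), of the opposite sign to that of Pdzd2. After sleep deprivation Synj2bp differed by 0.42 ± 0.14 (SE, adjusted p = 0.16 in limma) between KO and WT arrays.

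Gipc1, which encodes a cytoplasmic adaptor for receptors, averaged between 9.02 and 9.05 in all 4 groups, with a log2 difference of 0.02 ± 0.04 (SE) for sleep deprivation averaged over genotypes. Shank3, a scaffold of the postsynaptic density, averaged between 6.86 and 6.90, with a difference of 0.00 ± 0.05 (SE). Frmpd2, which encodes a protein with FERM and PDZ domains, averaged between 5.73 and 5.88, below all array medians, with a difference of -0.02 ± 0.08 (SE). None of these 3 had an adjusted p under 0.78 in any of the 7 comparisons.

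**Figure D4:**
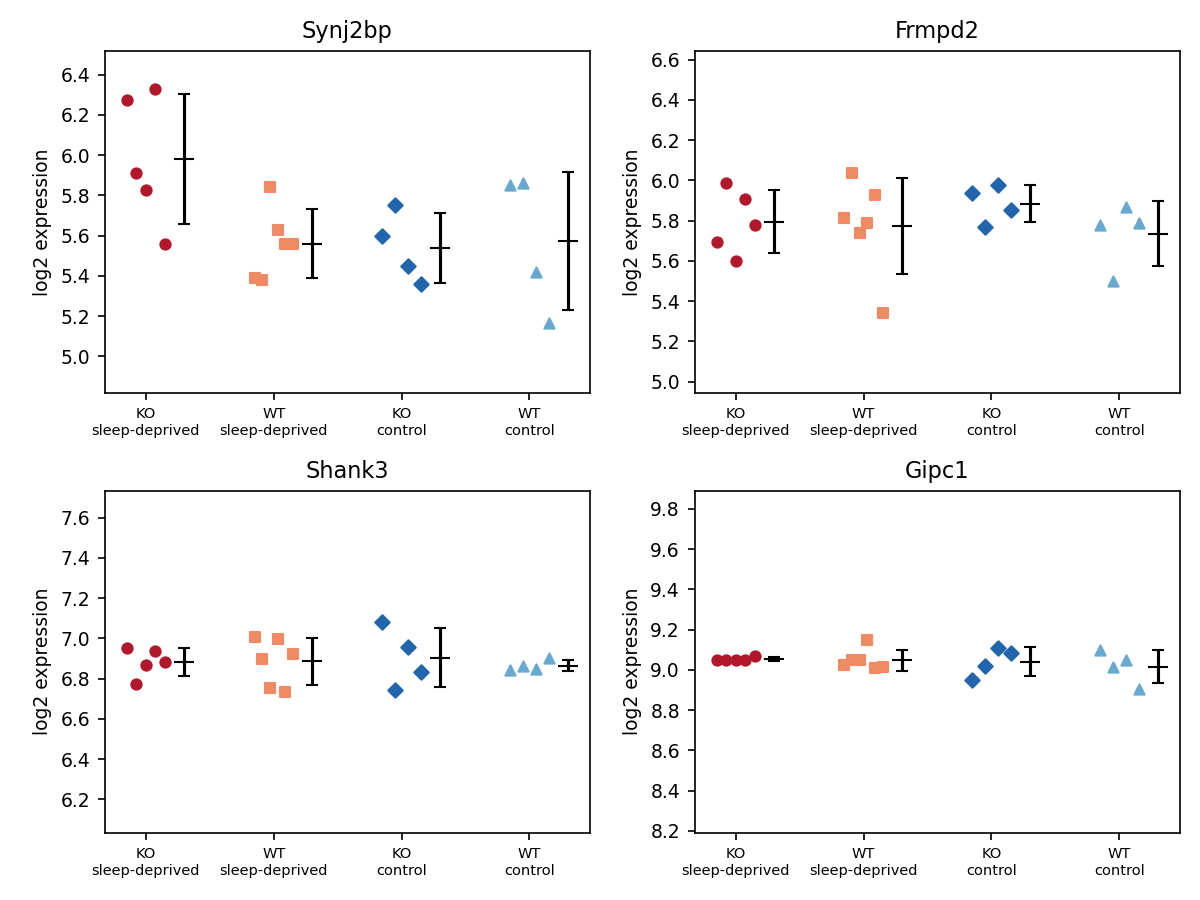
Log2 expression of the 4 other measured PDZ-domain genes on each array by group, on axes of equal height. Black bars are the mean ± SD (n = 5, 6, 4 and 4 from left to right); the groups of Frmpd2, Shank3 and Gipc1 overlap, and the 3 highest Synj2bp values are on KO sleep-deprived arrays.

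Of 16 genes for reported partners of Pdzd2 and their relatives (p0071 and other armadillo-repeat proteins, and voltage-gated sodium channels), 0 had a probe set of their own symbol, so no statement on them is made. Around Pdzd2 on chromosome 15, 4 of the 105 annotated genes within 5 Mb were measured, and 0 of these were called in any of the 7 comparisons, which called between 0% and 1.68% of all probe sets. The nearest, Gm17756, had a log2 difference of 0.01 ± 0.05 (SE) for sleep deprivation averaged over genotypes. Mir1898, a microRNA precursor, had -0.06 ± 0.09, Gm7686 had -0.02 ± 0.05, and Egflam, a retinal extracellular matrix protein, had 0.05 ± 0.07 (SE each). The 4 values lay within their own SE of zero.

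The genes whose values ran most like those of Pdzd2 over the 19 arrays were sought among 759 named genes by Pearson correlation, given as a description with no p because all of them share the arrays and the normalization. Over all 759 genes the quartiles of r were -0.17 and 0.17. The highest r were those of Hacd2 (0.76), an enzyme of very-long-chain fatty acid synthesis, Wdr78 (0.76), an axonemal dynein component, and Arhgap26 (0.72), a GTPase-activating protein. Next came Fkbp5 (0.71) and Gpd1 (0.69), the cytosolic glycerol-3-phosphate dehydrogenase. Spearman's rank correlation was 0.79, 0.75, 0.78, 0.82 and 0.69 for these 5, in the same order. Without the 2 arrays whose Pdzd2 value lay farthest from the median, r was between 0.63 and 0.73.

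Since Pdzd2 split the arrays into sleep-deprived and control, part of that likeness lay between the conditions. Within the 11 sleep-deprived arrays r was 0.50 for Hacd2, 0.41 for Wdr78, 0.51 for Arhgap26, 0.08 for Fkbp5 and 0.31 for Gpd1. Within the 8 control arrays r was 0.22, -0.08, -0.08, 0.35 and 0.27, in the same order. After each group's mean was taken away, r over all arrays was 0.52, 0.30, 0.34, 0.42 and 0.07, in the same order. For sleep deprivation averaged over genotypes, the log2 differences were 0.19 for Hacd2, 0.26 for Wdr78, 0.18 for Arhgap26, 0.42 for Fkbp5 and 0.19 for Gpd1. They are given with no test, since these genes were picked for running with Pdzd2, which was itself chosen on that contrast. The lowest r were those of Sspn (-0.60), which encodes sarcospan of the dystrophin complex, Nova2 (-0.59), a neuronal splicing regulator, and Mid1ip1 (-0.59).

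With each group's mean taken away, other genes came first. Rhbdl1 (0.74), a rhomboid-like protein, Eef1a1 (0.74), the translation elongation factor, H2-Q10 (0.74), a class I histocompatibility gene, Cks2 (0.74), a cyclin-dependent kinase subunit, and Dync2h1 (0.73), a dynein heavy chain of cilia, had the highest r. Within the 11 sleep-deprived arrays r was 0.82 for Rhbdl1, 0.30 for Eef1a1, 0.21 for H2-Q10, 0.68 for Cks2 and 0.80 for Dync2h1. In the 8 controls it was 0.44, 0.40, 0.62, -0.07 and -0.41, in the same order. These 5 were the highest of 759 genes, whose median r with group means taken away was -0.08. Over all 19 arrays, without taking the group means away, Rhbdl1 had an r of 0.17 and Dync2h1 0.42. Eef1a1 has many processed copies in the genome, so its probe set may read several of them.

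**Figure D5:**
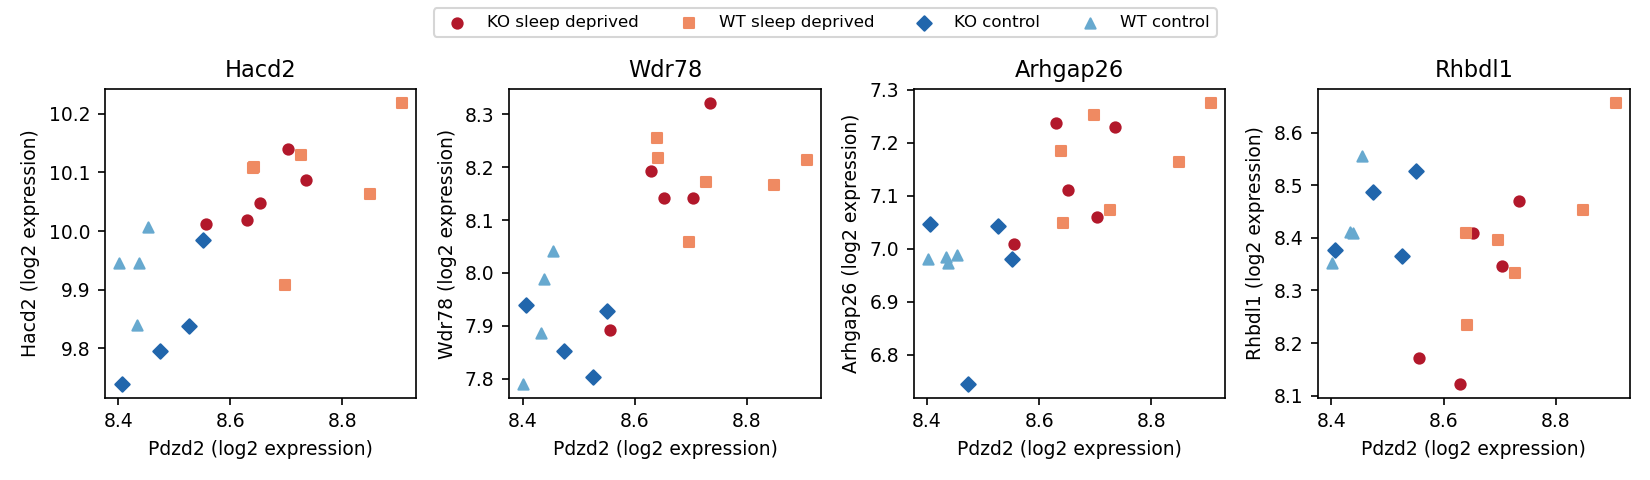
Log2 expression of Hacd2, Wdr78, Arhgap26 and Rhbdl1 against that of Pdzd2 on each of the 19 arrays, with group by colour and shape. The first 3 genes follow the split between sleep-deprived and control arrays (r = 0.76, 0.76 and 0.72), and Rhbdl1 follows Pdzd2 inside the groups and not across them (r = 0.74 with group means taken away, 0.17 without).

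The genotype could not be checked in these values, and the tissue only by 1 marker of neurons. Of 86 marker genes in 9 lists for forebrain, neurons, glia, vessels, choroid plexus, blood and hindbrain, 1 had a probe set of its own symbol. This was Map2, a dendritic microtubule protein of neurons, which averaged from 11.75 to 11.80 in the 4 groups and had a log2 difference of 0.01 ± 0.04 (SE, adjusted p = 0.97 in limma) for sleep deprivation averaged over genotypes. No marker of forebrain, hindbrain, glia, vessels, choroid plexus or blood could be set beside Pdzd2. Epha4 itself has no probe set of its own name among those used here. Array medians ran from 5.94 to 6.07 in KO sleep-deprived, 5.90 to 6.04 in WT sleep-deprived, 5.93 to 6.04 in KO control and 5.92 to 5.96 in WT control arrays.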

How the data were processed

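The deposited values are log2 expression, 1 value per probe set and array, and ranged from 2.18 to 14.2. Per the submitters' processing notes, RMA, oligo and limma were used, with no roles or versions stated; the genome build is not given in the sources used here, and the series' text says that its tables are incomplete. There is no read depth on arrays; precision is limited by how many there are.

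From these values, 4 group means were fitted to all 19 arrays with limma 3.58.1 in R 4.3.3, without covariates, and p-values had Benjamini-Hochberg adjustment across the 8751 probe sets, with a threshold of 0.05. The fit was also run on simulated data with independent noise and added changes larger than any Pdzd2 difference here. That run does not cover changes as small as those of Pdzd2. Genes were named from the platform annotation where a probe set had 1 symbol, using the brightest probe set of a gene. Named genes were Pdzd2, measured list members, up to 5 chromosome neighbours within 5 Mb, and the 5 highest and 3 lowest correlations, and 5 within groups, passing over predicted, microRNA and small nucleolar genes. Gene names and neighbours came from the GRCm38.p6 gene table. Pdzd2 and the lists were chosen with earlier results of these data known. Alternatives covered the variance prior, array weights, scaling, filters, arrays fitted, the replicate number as a block and leaving out each array. Averaging of Pdzd2 probe sets had no use, with 1 present. Plots were drawn with matplotlib 3.10.9.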

Additional observations from a re-analysis of the deposited data

Results flagged for a closer look

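Of the 20 groups checked (Pdzd2 and the 4 other PDZ-domain genes in each of the 4 groups), 2 held an array set apart for the spread of its group. Both were for Gipc1 and neither for Pdzd2. Gipc1 read 9.07 on KO sleep-deprived replicate 5, against 9.05 on each of the other 4 arrays of that group, a small step in a group with an SD of 0.009. It read 9.15 on WT sleep-deprived replicate 4, against 9.01 to 9.05 on the other 5 arrays. Chance alone gives about 1 such array in 20 groups.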

How the results depend on the processing

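The sleep deprivation difference of Pdzd2 was positive in each of the 28 alternatives run per genotype and of the 27 run for the average. Many of these could not move it. The variance prior, the row filters and fitting only the groups compared leave the estimate unchanged. So does leaving out an array of the other genotype, for the difference within a genotype. Pdzd2 was also chosen on this contrast, so these counts are a description and not support. On leaving out single arrays the sleep deprivation difference ran from 0.14 to 0.19 in the knockout, 0.28 to 0.33 in wild type and 0.22 to 0.25 averaged. The gap between the lowest sleep-deprived and the highest control array, checked after seeing the data, turned to -0.051 (quantile normalization) and -0.13 (median centring) in the knockout and over both genotypes, and was 0.084 in wild type with median centring. On leaving out single arrays it ran from 0.0047 to 0.08 in the knockout and over both genotypes. No genotype or interaction comparison of Pdzd2 passed the threshold in any alternative. The smallest adjusted p in limma were 0.87 in controls, 0.17 after sleep deprivation, 0.79 averaged and 0.34 for the interaction. On leaving out single arrays the genotype difference ran from -0.11 to -0.06 after sleep deprivation and from 0.04 to 0.09 in controls, and the interaction from -0.17 to -0.11. The genotype difference after sleep deprivation was -0.15 with quantile normalization, and that in controls 0.02 with median centring. The averaged genotype difference was negative in 26 of 27 alternatives, and without WT sleep-deprived replicate 5 it was 0.00. The count of called PDZ-domain genes stayed at 0 of 4 in every alternative run. With the replicate block, the interaction was -0.15 (adjusted p = 0.62) and the sleep deprivation differences 0.16 in the knockout and 0.31 in wild type. The labels do not say whether the replicate numbers pair the samples. Deviations of same-numbered arrays had correlations of -0.22 to 0.08 over 25 pairs (mean -0.041, against 0.009 for other pairs). Such correlations over whole arrays cannot settle whether the numbers mark a shared day, litter or batch.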
